A study of Mus musculus with 32 samples.

Results

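The DEAD and DEAH box RNA helicases were taken as every gene of the 3′UTR count table whose symbol begins with Ddx or Dhx followed by a number, with pseudogenes left out. The rule found 54 genes of the 44081 in the table, 38 of them with a Ddx symbol and 16 with a Dhx symbol. The dendrites and the soma of 16 mouse hippocampal neurons were profiled as separate libraries, so each neuron gave 1 library per compartment and there were 32 in all. The neurons were primary cells from C57BL/6 embryos of day 18, kept in culture for 15 days, with no treatment or genetic change in either compartment. RNA was amplified by the aRNA method, a linear amplification by in vitro transcription from the poly-A tail, in 3 rounds for neurons 1 to 4 and in 2 rounds for the other 12, and both compartments of a neuron had the same number of rounds. A culture gives the neurons of a dish without their tissue context, and the dendrites of 1 neuron were pooled into 1 library.

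RNA helicases of this superfamily use ATP to open short RNA duplexes and to strip proteins from RNA. They act at nearly every step in the life of an mRNA, from transcription and splicing in the nucleus to export, translation and decay in the cytoplasm, and many build ribosomes in the nucleolus. In neurons several of them, among them Ddx1, Ddx3x, Ddx6 and Dhx36, are known parts of the RNA granules that carry mRNAs into dendrites and hold them in a repressed state. What was measured here is the mRNA of each helicase, not the protein.

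The family takes its name from motif II, the 4 residues that bind magnesium and ATP. In the coding sequence of the longest open reading frame of each gene (GENCODE vM21, GRCm38), motif II was encoded as DEAD in 28 of the 54 genes, as DEAH in 9 and with another residue in the latter part of the motif in 15. No match was found for Ddx26b, which the annotation calls Ints6l, and Dhx32. The stretches shown here are those of the genes on which the results turn, each 30 bases long and read 5′ to 3′, with the 12 bases of the 4 motif codons in capitals.
Ddx56: ctggtggtaGATGAAGCTGACcttcttttt
Ddx10: ttagttcttGATGAGGCAGATagaatcttg
Ddx27: ctcatcttgGATGAGGCTGACaggatgctg
Ddx39b: tttattttgGACGAGTGTGACaagatgctt
Dhx57: atcattgttGATGAAGTTCATgagaggaca
Ddx58: atgatatttGATGAGTGTCATaacactagc
Dhx30: gtcattgtgGATGAGGTCCATgagcgggat
Ddx3x: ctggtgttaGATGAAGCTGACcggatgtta
Ddx3y: ttagtattgGATGAAGCTGATaggatgctg
The third codon is that of alanine in Ddx56, Ddx10, Ddx27 and the pair Ddx3x and Ddx3y, of cysteine in Ddx39b and Ddx58, and of valine in Dhx57 and Dhx30. The last codon is that of aspartate in the first group and in Ddx39b, and of histidine in Dhx57, Ddx58 and Dhx30.

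Between 646521 and 6954420 reads per dendrite library fell on 3′UTRs, and between 925525 and 21169974 per soma library. The summed share of the 54 helicases was 0.185% ± 0.0707 (SD, n = 16) in dendrites, and in somas it was 0.292% ± 0.0514 (SD, n = 16). Levels are given as CPM, the count per 1000000 reads of the TMM-scaled library. A count of 0 in 1 library allows up to 0.431 to 4.64 reads per 1000000 in dendrites and 0.142 to 3.24 in somas. These limits are 3 reads of the unscaled total, so they are not on the CPM scale, and they cover counting error only. Some libraries stood apart. The dendrites of neurons 15 and 16 had the fewest of the 10880 tested genes, 2973 and 4641, and neuron 5 had more of them in its dendrites (9938) than in its soma (8524). The 7 pyramidal neuron markers summed to 1693 to 9168 CPM in dendrites and 2106 to 6356 CPM in somas, and each was present in both compartments. Astrocyte markers summed to a median of 74.1 CPM in dendrites and 13.1 CPM in somas, and microglia markers to 5.95 and 0.832 CPM. Oligodendrocyte markers had medians of 8.30 and 2.41 CPM and endothelial markers of 2.11 and 0.242 CPM, with Cldn5 at 0 in every library. The part of these other cells in the results was not tested.

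Reads of 53 of the 54 helicases were found in at least 1 dendrite library, and of 52 in at least 1 soma. A dendrite library held 30.3 ± 8.86 helicases with at least 1 read (SD, n = 16), from 11 in neuron 15 to 45 in neuron 5, and a soma held 41.3 ± 5.93 (SD, n = 16), from 31 to 49. The soma had more in 15 of 16 neurons, by 10.9 ± 9.93 (SD, n = 16), and neuron 5 was the exception with 45 in dendrites and 31 in the soma. Counted at 10 reads, the difference was 17 ± 12.2 (SD, n = 16), and with each pair of libraries thinned to the smaller total it was 9.09 ± 9.94 (SD, n = 16). The genes tested as a whole had the same direction. Of the 45 helicases that entered the test, 63.2% ± 18.2 (SD, n = 16) had a read in a dendrite library and 86.3% ± 9.54 (SD, n = 16) in a soma library, beside 68.8% ± 17.1 and 88.0% ± 6.80 (SD, n = 16) of all 10880 genes tested.

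**Figure D1:**
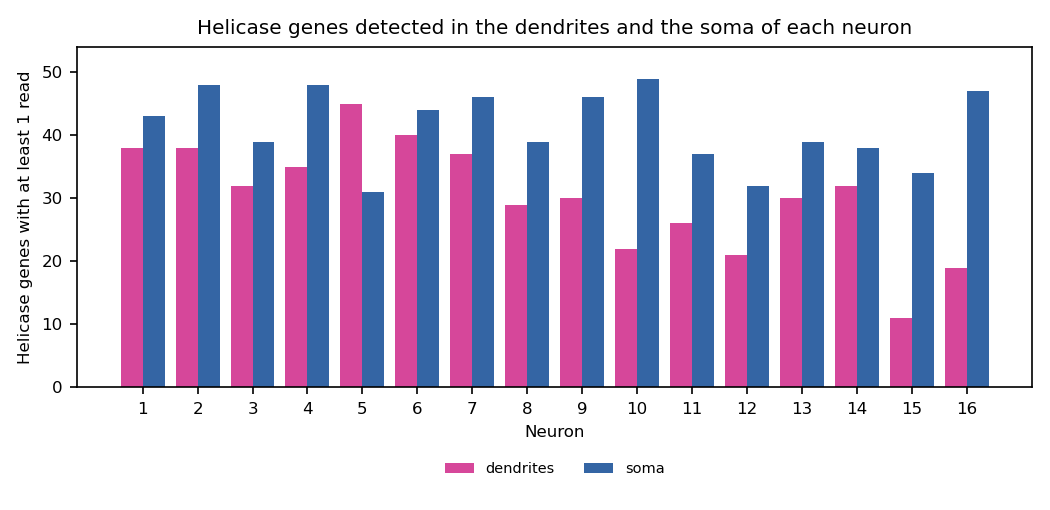
Helicase genes with at least 1 read (y axis, of 54) in the dendrites and in the soma of each neuron (x axis), 1 bar per library. The soma bar is the taller in every neuron but neuron 5, and the lowest bar is that of the dendrites of neuron 15, with 11 genes.

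Single helicases differed widely in how many neurons held them. No helicase had reads in all 16 dendrite libraries and 16 had reads in all 16 somas. Ddx1, Ddx3x, Ddx5, Dhx15 and Dhx9 had reads in 15 of 16 dendrites, which is 5 of the 45 tested helicases, while 17.1% of all tested genes reached 15 or more. In 15 of the 45 tested helicases (33.3%), over 50% of the summed dendrite CPM came from 1 library, against 2 (4.44%) in somas, and for all tested genes these shares were 25.1% and 7.56%. Ddx54 had 93.2% of its dendrite CPM and Ddx19b 68.0% in neuron 15, and Ddx10 had 94.4% in neuron 10.

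**Figure D2:**
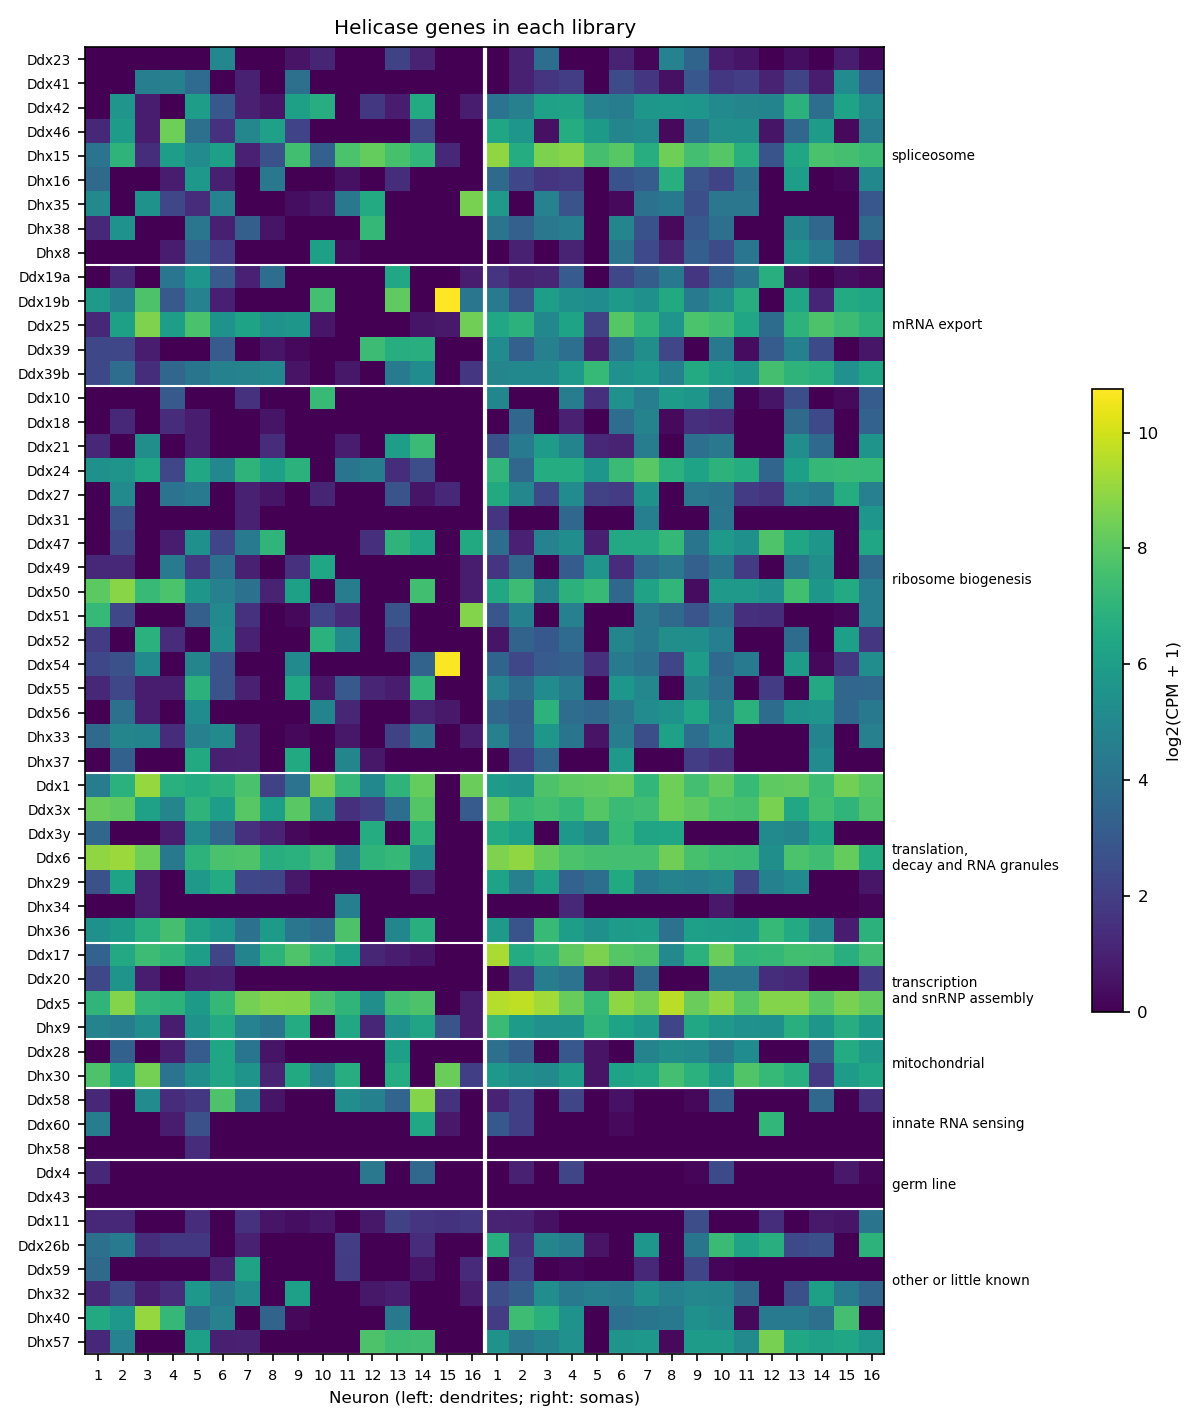
Level of each of the 54 helicases (rows, grouped by role) in each library (columns, dendrites of neurons 1 to 16 on the left and somas on the right), as log2(CPM + 1). Ddx5, Ddx1 and Ddx6 form nearly unbroken bright rows. Dhx15 is bright in most libraries but at 1.63, 0.956, 1.32 and 0 CPM in the dendrites of neurons 3, 7, 15 and 16. Most other rows are patchy in dendrites, and the 2 brightest cells are Ddx19b and Ddx54 in the dendrites of neuron 15.

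To ask which helicase mRNAs differed in concentration between compartments, dendrites were compared with somas of the same neurons over the genes that had a read in 16 or more of the libraries. Of the 45 helicases tested, Ddx56, Ddx10, Ddx27, Ddx39b and Dhx57 were higher in somas and none was higher in dendrites at an adjusted p of at most 0.05 (edgeR's quasi-likelihood test with neuron as a block, Benjamini-Hochberg over 10880 genes). Of all genes tested, 5.71% were called higher in somas and 0.827% higher in dendrites. At an unadjusted p under 0.05, 23 helicases were higher in somas and 1, Ddx58, in dendrites, beside 26.7% and 3.55% of all genes. DESeq2 called 30 higher in somas and 1 in dendrites, again Ddx58, beside 46.2% and 4.26% of all genes. The log2 fold change of dendrites over somas was below 0 in 43 of the 45 helicases, the exceptions being Ddx58 and Ddx11. It was below 0 in 8573 of all 10880 genes tested. Its median was -2.82 over the helicases and -1.49 over all genes tested, so that the helicases lay 1.33 lower on the log2 scale, with 36 below the median gene and 9 above it. That gap was -0.29 in the neurons of 3 rounds, -0.35 with exon counts, -0.41 without the block for neuron and -2.20 with no filter on low counts. When the median gene was set to 0, Ddx56 alone was called higher in somas and no helicase in dendrites, while 0.846% and 5.04% of all genes were called.

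**Figure D3:**
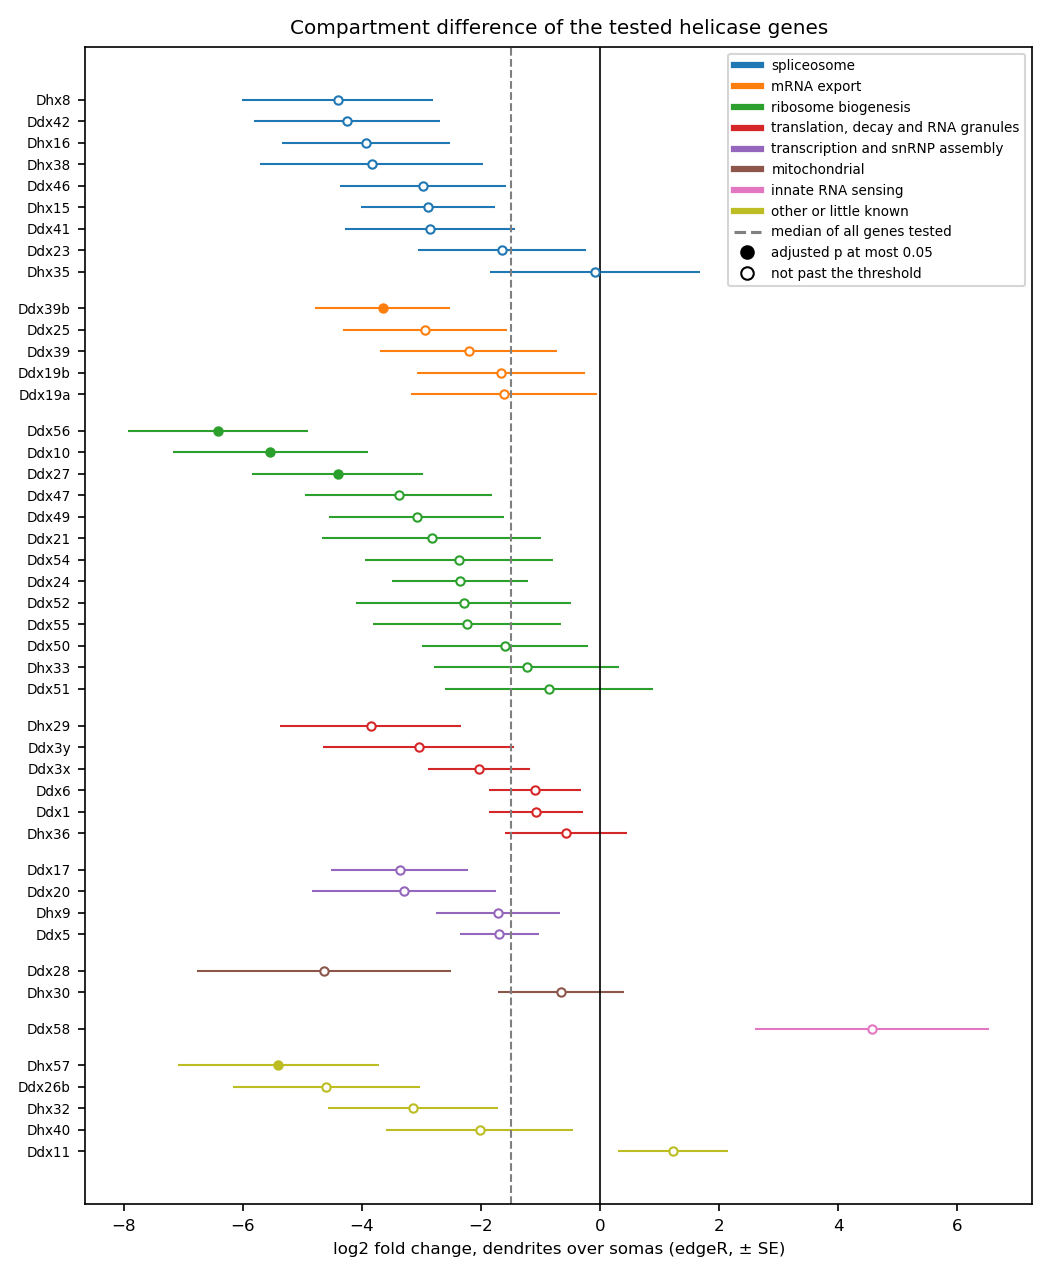
Log2 fold change of dendrites over somas (x axis, edgeR, bars ± SE of the fit to 16 paired neurons) of the 45 tested helicases, coloured by role. The bars do not show the spread over neurons. Filled points have an adjusted p of at most 0.05. Nearly all points lie left of 0, the 5 filled points lie between -6.42 and -3.65, and Ddx58 stands alone at 4.57.

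The helicases of ribosome biogenesis, which process pre-ribosomal RNA and assemble subunits in the nucleolus, held 3 of the 5 calls. Of 16 members 13 were tested, 3 were called higher in somas, 6 had an unadjusted p under 0.05 in that direction (beside 5.71% and 26.7% of all genes), and the median log2 fold change was -2.36. Ddx56, a nucleolar factor of the large subunit (chr11:6258919-6267772, minus strand, GRCm38), ranged from 0 to 36.3 CPM in dendrites with a median of 0, and from 7.90 to 123 CPM in somas with a median of 21.8. Reads were absent from 9 dendrites and from no soma, and the dendrites were higher in neurons 2, 5 and 10 alone. Its log2 fold change was -6.42 (SE 1.5, adjusted p = 0.0127, edgeR), the lowest of the 45.

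Ddx10, which acts on the small subunit (chr9:53098635-53248053, minus strand), was at 0 in 13 dendrites and reached 150.2 CPM in neuron 10, with somas from 0 to 59.8 CPM and a median of 6.31. The groups overlapped, since dendrites 4 and 7 held 6.97 and 1.91 CPM and 3 somas were at 0, and the soma was higher in 12 of 13 neurons with reads. The log2 fold change was -5.54 (SE 1.64, adjusted p = 0.0357, edgeR). Ddx27, a large-subunit factor (chr2:167015193-167034947, plus strand), had 0 to 32.9 CPM in dendrites (median 0.536) and 0 to 100.5 CPM in somas (median 20). It was higher in the soma in 13 of 16 neurons, and its adjusted p of 0.0499 (log2 fold change -4.41, SE 1.43, edgeR) lay just inside the threshold. Ddx24, also a nucleolar protein, had a median of 26.7 CPM in dendrites and 109 CPM in somas, and its log2 fold change of -2.35 (SE 1.14) did not pass. Ddx54 and Ddx51 reached 1661 and 435 CPM in a single dendrite library each, with log2 fold changes of -2.36 (SE 1.58) and -0.86 (SE 1.75). Among the members left untested, Ddx18 had 5 reads over all dendrites and 602 over all somas, Ddx31 had 5 and 1012, and Dhx37, with the opposite balance, had 844 and 568.

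The mRNA export helicases feed spliced mRNAs through the nuclear pore. All 5 were tested and 1 was called higher in somas, beside 5.71% of all genes. The median log2 fold change was -2.21, against -1.49 over all genes. Ddx39b, known as UAP56, which loads the export adaptor onto mRNA (chr17:35241746-35253707, plus strand), had 0 to 36.5 CPM in dendrites (median 7.43) and 25.6 to 192 CPM in somas (median 53.1). In 12 of 16 neurons the soma value exceeded the highest dendrite value of any neuron, and neuron 8 alone had more in dendrites. The log2 fold change was -3.65 (SE 1.14, adjusted p = 0.0439, edgeR). Its close copy Ddx39 was rarer, with medians of 0.347 CPM in dendrites and 8.26 CPM in somas (log2 fold change -2.21, SE 1.48, adjusted p = 0.293, edgeR). Ddx19a and Ddx19b, neighbouring copies that release mRNA at the cytoplasmic face of the pore, had log2 fold changes of -1.61 (SE 1.56) and -1.67 (SE 1.41). Uniquely mapped reads alone were counted, so values of such near-identical copies are uncertain. Ddx25, known from germ cells, had reads in 13 dendrites (median 45.1 CPM) and in all 16 somas (median 119 CPM), and its log2 fold change was -2.94 (SE 1.37, adjusted p = 0.142, edgeR).

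None of the 9 spliceosomal helicases was called, although 6 had an unadjusted p under 0.05 toward somas and the group's median log2 fold change was -2.98. DESeq2 called 7 of the 9, and over all genes 26.7% had such a p and DESeq2 called 46.2%. These enzymes drive the remodelling steps of the spliceosome in the nucleus. Ddx42, a partner of the U2 snRNP, had a dendrite median of 0.887 CPM and a soma median of 34.1 CPM (log2 fold change -4.25, SE 1.56, adjusted p = 0.0761, edgeR). Dhx15, which disassembles the spliceosome after splicing, was the most widely found of the group, with 0 to 295 CPM in dendrites (median 49.1) and 6.00 to 504 CPM in somas (median 191). It was present in 15 dendrites, yet its soma value was the larger in 12 of 16 neurons (log2 fold change -2.89, SE 1.12, adjusted p = 0.0889, edgeR). Dhx35, found in purified spliceosomes, was higher in dendrites in 6 neurons and in the soma in 6, with 382 CPM in its highest dendrite library and a log2 fold change of -0.08 (SE 1.76).

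The helicases of translation, decay and RNA granules lay closest to the median gene. Of 7 members 6 were tested and none was called. An unadjusted p under 0.05 toward somas was found for 2 (26.7% of all genes), and DESeq2 called 4 (46.2% of all genes). The median log2 fold change of -1.56 was 0.07 below that of all genes. Ddx6, the decapping activator of P-bodies, had 0 to 561 CPM in dendrites (median 125) and 40.4 to 497 CPM in somas (median 192). Ddx1, a component of transport granules, had 0 to 534 CPM in dendrites (median 117) and 47.4 to 349 CPM in somas (median 253). For both the compartments overlapped over most of their range, and the log2 fold changes were -1.10 (SE 0.77, adjusted p = 0.317) and -1.08 (SE 0.79, adjusted p = 0.336) in edgeR's quasi-likelihood test.

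Dhx36, which unwinds G-quadruplexes, was the closest of the group to equal levels, with medians of 45.0 CPM in dendrites and 60.4 CPM in somas (log2 fold change -0.57, SE 1.03, adjusted p = 0.707, edgeR). Dhx29, which helps the ribosome scan structured leaders, lay at the other end with medians of 0.727 and 24.3 CPM (log2 fold change -3.85, SE 1.52, adjusted p = 0.0931, edgeR). Ddx3x, a helper of translation initiation encoded on the X chromosome, had 0 to 308 CPM in dendrites (median 61.9) and 82.9 to 385 CPM in somas (median 188), and its log2 fold change was -2.03 (SE 0.86, edgeR's adjusted p = 0.113). Its Y-linked copy Ddx3y had medians of 0.467 and 33.0 CPM (log2 fold change -3.04, SE 1.61, adjusted p = 0.188, edgeR). Ddx3y had at least 10 reads in 10 neurons, and 9 of these also had at least 10 reads of Uty, Kdm5d and Eif2s3y together. Of the other 6 neurons, 1 had 370 reads of these genes and the other 5 had at most 6. The compartment difference of Ddx3y thus rests on the neurons that held its reads, 11 of 16.

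**Figure D4:**
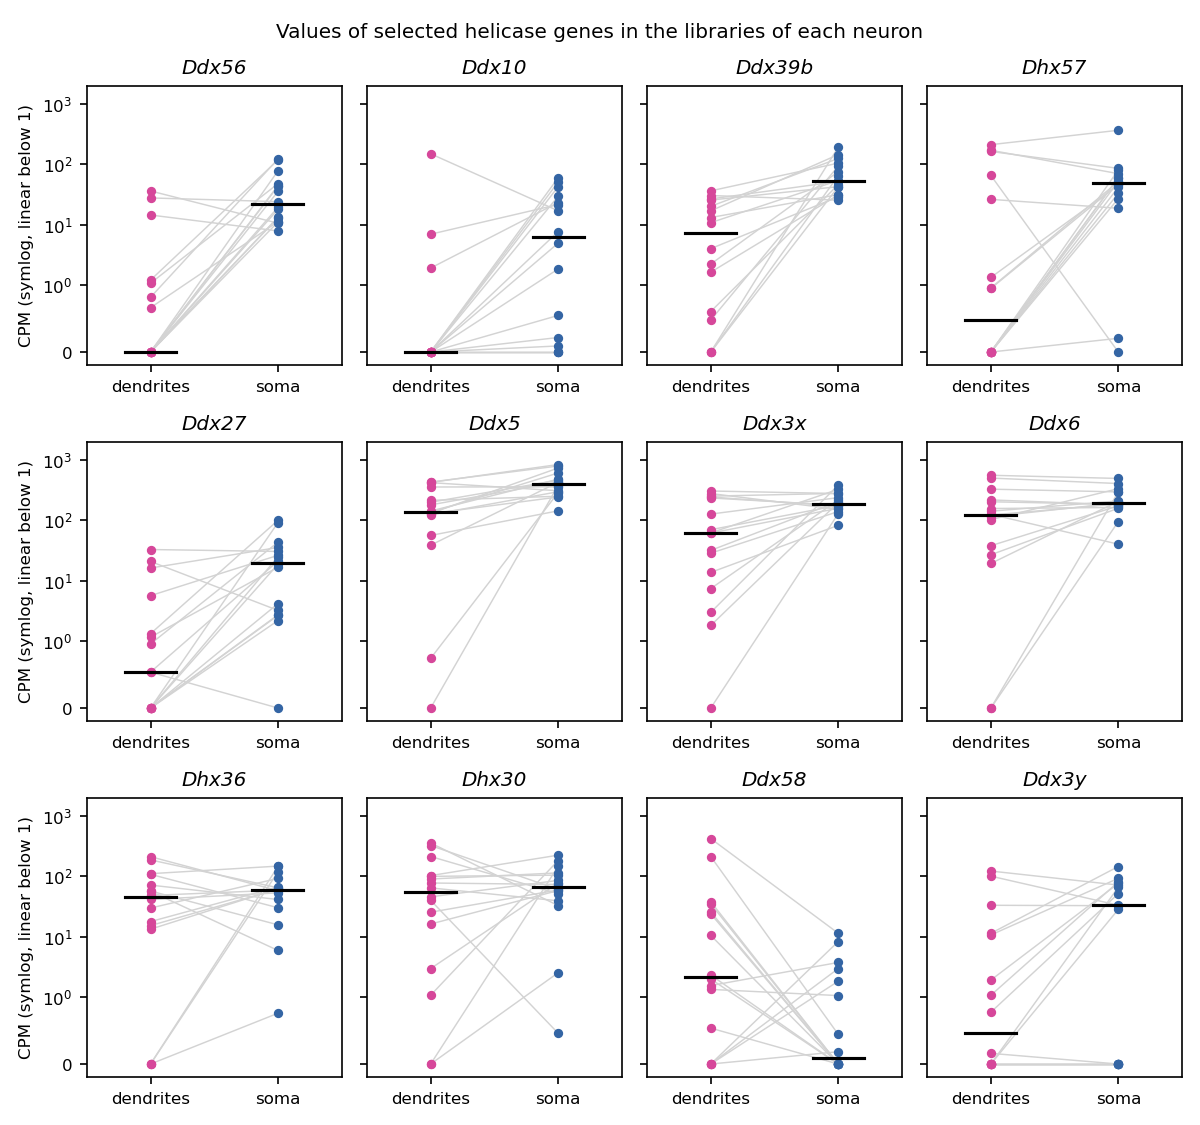
CPM of 12 helicases in the dendrites and the soma of each neuron (y axis, log scale, linear below 1), with grey lines joining libraries of 1 neuron and black bars at the medians. The top row and Ddx27 are the 5 genes called higher in somas; Ddx6, Dhx36 and Dhx30 overlap between compartments, and Ddx58 is the panel in which the dendrite median lies above the soma median.

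The 4 helicases of transcription and snRNP assembly had a median log2 fold change of -2.50, with 0 called in edgeR, 3 called in DESeq2 and 3 at an unadjusted p under 0.05 in edgeR, all toward somas. Over all genes the shares toward somas were 5.71%, 46.2% and 26.7%. Ddx5, a coactivator and splicing regulator, ranged from 0 to 433 CPM in dendrites (median 139.5) and from 144 to 846 CPM in somas (median 403), with the larger value in the soma in 15 of 16 neurons. Its log2 fold change was smaller than that of its copy Ddx17, -1.69 (SE 0.67, adjusted p = 0.0948) against -3.37 (SE 1.15, adjusted p = 0.0603) in edgeR's quasi-likelihood test, and the difference between the 2 genes was not tested. The 3′UTR of Ddx5 overlaps Gm25994 and Mir3064 on the same strand in GENCODE. Dhx9, which unwinds RNA and DNA duplexes in the nucleus, was present in 15 dendrites with a median of 26.3 CPM and in 16 somas with a median of 54.7 CPM (log2 fold change -1.71, SE 1.04, adjusted p = 0.248, edgeR).

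The 2 mitochondrial helicases lay far apart in their values. Ddx28, an assembly factor of the mitochondrial ribosome, had a median of 0 CPM in dendrites and 11.4 CPM in somas (log2 fold change -4.64, SE 2.13, adjusted p = 0.137, edgeR). Dhx30, of mitochondrial RNA granules and ribosomes, had reads in 14 dendrites (median 55.2 CPM) and 16 somas (median 67.4 CPM), and its log2 fold change was -0.66 (SE 1.05, adjusted p = 0.67, edgeR). Neither passed in edgeR, DESeq2 called Ddx28 higher in somas, and the difference between them was not tested.

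Ddx58, which encodes RIG-I, the sensor of viral RNA with a 5′ triphosphate (chr4:40203773-40239828, minus strand), had the highest log2 fold change of the family. It ranged from 0 to 424 CPM in dendrites (median 2.15) and from 0 to 11.4 CPM in somas (median 0.0918). The compartments overlapped, dendrites were higher in 11 of 16 neurons and the soma in 5, and the 2 highest dendrite libraries were those of neurons 14 (424 CPM) and 6 (214 CPM). Of the 11, neurons 1, 5, 8 and 15 rested on 1, 3, 1 and 3 dendrite reads. In neurons 2, 4, 9, 10 and 16, where the soma was higher, it held 3, 27, 4, 110 and 20 reads. The log2 fold change of 4.57 (SE 1.96) had an unadjusted p of 0.024 and an adjusted p of 0.117 in edgeR's quasi-likelihood test, and DESeq2 gave an adjusted p of 1.49e-04. The log2 fold change was 6.12 in the neurons of 2 rounds and 0.19 in those of 3. The difference of -6.06 (SE 3.52) between them had an unadjusted p of 0.091 in edgeR's quasi-likelihood test and was not called. In the dendrites of neurons 14 and 6 the summed microglia markers were at 0.537 and 0 CPM. The dendrites with the highest microglia sum, those of neuron 13 at 386 CPM, held 10.5 CPM of Ddx58, and those of neuron 7 held 148 CPM of these markers and 23.9 CPM of Ddx58. Markers of the other cell types were not set against Ddx58. The other sensors were rarer still. Ddx60 had reads in 5 dendrites and 4 somas, and Dhx58 had 2 reads in 1 dendrite library and 0 in somas.

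Among the helicases of other or little known function, Dhx57 (chr17:80238309-80290476, minus strand) was called higher in somas, with 0 to 213 CPM in dendrites (median 0.475) and 0 to 368 CPM in somas (median 49.4). Dendrites were higher in neurons 2, 5, 13 and 14 and the soma in the other 12, and the log2 fold change was -5.40 (SE 1.69, adjusted p = 0.0439, edgeR). Ddx26b, an Integrator paralogue without a motif II match, had medians of 0.478 and 19.6 CPM (log2 fold change -4.60, SE 1.57, adjusted p = 0.0614, edgeR). Ddx11, a DNA helicase of sister chromatid cohesion, had the second highest log2 fold change, 1.22 (SE 0.92), but no dendrite library held more than 4 reads. Of the germ line helicases, Ddx4 (VASA) had reads in 3 dendrites and 6 somas. Ddx43 had 0 reads among 150347351, which allows up to 0.02 per 1000000 unscaled reads over all libraries. The 9 helicases that did not enter the test were Ddx4, Ddx18, Ddx31, Ddx43, Ddx59, Ddx60, Dhx34, Dhx37 and Dhx58.

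The 5 calls did not weigh equally on the neurons. Leaving out each neuron in turn gave 1 to 9 helicases higher in somas, with 9 without neuron 5, 8 without neuron 2 and 1 without neuron 1, 4, 7, 9, 12, 15 or 16. The share of all genes called in each of these fits was not determined, so whether these counts follow that share was not tested. Ddx56 was called in all 16 of these fits. Ddx10 was called in 5 of the 13 in which it was tested, Ddx39b and Dhx57 in 4 of 16 and Ddx27 in 3 of 16. Without neurons 5, 15 and 16, a choice made after seeing the data, Ddx56 was the 1 call left (1.13% of all genes were called higher in somas) and the median of the helicases was -2.30.

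Within a neuron the balance of the family varied. Of the helicases with reads in either compartment, 69.1% ± 14.7 (SD, n = 16) had a higher CPM in the soma, from 31.9% in neuron 5 and 46.9% in neuron 2 to 85.4% in neuron 16. Over all genes tested the share was 61.8% ± 8.38 (SD, n = 16), and it was lowest in neuron 5 as well (46.1%). Across genes, 42 of the 45 tested helicases were higher in the soma in over 50% of the neurons with reads, 11 of them in at least 80%. The matching count over all genes tested was not determined.

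Whether amplification changed the comparison was asked by testing the difference in compartment effect between neurons with 2 and with 3 rounds. No helicase was called, as was true of all 10880 genes (0.0% called), in edgeR and, for the helicases, in DESeq2. At an unadjusted p under 0.05 there were Dhx40 (difference in log2 fold change 6.59, SE 3.03) and Ddx50 (5.32, SE 2.50), beside 2.65% of all genes. In the 12 neurons of 2 rounds the median log2 fold change of the helicases was -3.28 with 1 call higher in somas, Ddx56 (2.88% of all genes), and in the 4 neurons of 3 rounds it was -0.91 with 0 such calls in edgeR (0.00758% of all genes; at an unadjusted p under 0.05, 4 toward somas and 0 toward dendrites).

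The isoform table holds counts for stretches of 500 nt at the 3′ ends of transcripts, numbered as features within a gene. Their positions are not given in the sources used here, so that which of 2 features is nearer to the stop codon was not determined. For 13 helicases the share of reads on the higher-numbered of the 2 main features could be compared over at least 5 neurons with 10 or more reads in both compartments. Dhx30 alone had p under 0.1 in the exact signed-rank test, which is 1 of 13, while 8.44% of the 3508 genes tested passed. The third feature of Dhx30 took 34.6% ± 44.1 of the reads on the main pair of features, itself and the first, in dendrites, against 0.552% ± 1.17 in somas (SD, n = 10 for both). The share was higher in dendrites in 6 neurons and in the soma in 0, and it was 0% in both compartments in 4. In the dendrites of neurons 10, 3, 1 and 6 it was 100%, 94.3%, 86.3% and 54.9%, while no soma exceeded 3.02%. The exact two-sided p was 0.0312, the lowest that this test can give with 6 neurons that differ, and the adjusted p was 0.906. In neuron 13, which is among the 6, the dendrite share was 1.82% of 55 reads. The correction passed 0 of the 3508 genes, so it does not decide whether Dhx30 differed.

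Ddx5, Dhx36 and Ddx25 used both of their main features in both compartments. The second feature of Ddx5 took 49.4% ± 39.1 in dendrites, against 43.4% ± 14.8 in somas (SD, n = 14 for both), and the exact signed-rank p was 0.715. Dendrite shares of Ddx5 ran from 0% to 100% and soma shares from 18.1% to 63.4%. The third feature of Dhx36 took 36.4% ± 42.2 in dendrites, against 43.3% ± 22.5 in somas (SD, n = 12 for both) (exact signed-rank p = 0.569). The second feature of Ddx25 took 59.2% ± 44.1 in dendrites, against 86.5% ± 15.9 in somas (SD, n = 8 for both) (exact signed-rank p = 0.148). In Ddx6, Ddx39b and Ddx24 nearly all reads of both compartments fell on 1 feature.

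**Figure D5:**
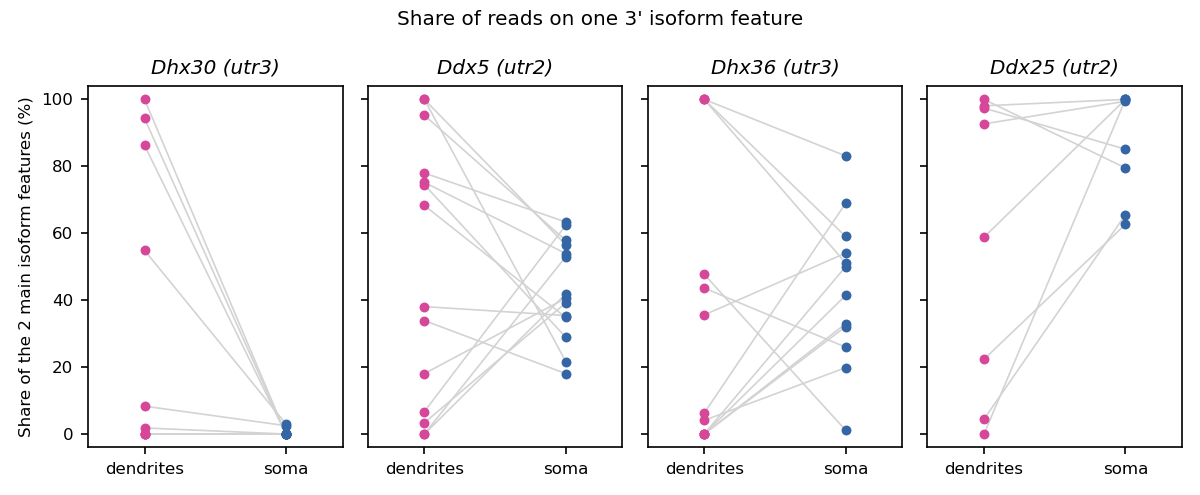
Share of reads (y axis, percent of the reads on the 2 main features) on the third 3′ feature of Dhx30 and Dhx36 and the second of Ddx5 and Ddx25, in the dendrites and soma of each neuron, joined by lines. In Dhx30 the share exceeds 50% in 4 dendrites and stays near 0% in every soma, while lines cross in the other panels.

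Genes that work with or beside these helicases were examined from lists. The DEAD box translation factors Eif4a1 and Eif4a2 and the exon junction protein Eif4a3, which carry other symbols, had log2 fold changes of -1.65 (SE 0.77), -1.62 (SE 0.64) and -4.34 (SE 1.51). None was called in edgeR's quasi-likelihood test (adjusted p = 0.143, 0.0941 and 0.065). DESeq2 called all 3 higher in somas, as it did 46.2% of all genes. Of 20 RNA helicases of other families, 11 were tested, and Skiv2l2, the exosome helicase, and Ythdc2, a reader of m6A, were called higher in somas, where 5.71% of all genes were. Of 31 cofactors that bind helicases through a G-patch or MIF4G domain 27 were tested and 5 were called higher in somas, beside the same 5.71%: Gpatch4, Tfip11, Gpkow, Upf2 and Ncbp1. Their median log2 fold change was -2.72, and Eif4g2, a translation factor with reads in all 32 libraries, was at 0.04 (SE 0.41).

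The annotated 3′UTRs of the 45 tested helicases were shorter than those of all tested genes, with medians of 1284 nt and 1849 nt (GENCODE vM21, annotated length per gene, 9114 genes with a value). Across the 45 genes, which share their libraries, the Spearman correlation of 3′UTR length with the log2 fold change was 0.387, and across the 9114 genes it was 0.0777. The called genes Ddx39b, Ddx56, Ddx10 and Dhx57 had 3′UTRs of 221, 265, 453 and 481 nt, and Ddx27 had 1544 nt. The tested helicases that were not called ran from 184 nt (Ddx28) to 5378 nt (Ddx17). Ddx41, Dhx32 and Ddx50, also not called, had 188, 289 and 346 nt. Whether 3′UTR length bears on the calls was not tested.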

How the data were processed

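Strand-specific reads were trimmed by the authors, aligned to mm10 with STAR 2.4.0 and assigned by VERSE where they mapped uniquely. The deposited values are raw read counts for the 3′UTRs of 44081 genes, for 74532 isoform features and for the exons of 23453 genes. Counts for 92 ERCC spike-ins come with the latter. The labels give a spike-in dilution of 0 for neurons 1 and 2, whose 4 libraries held 59 to 80 spike-in reads against 3083 to 283471 in the others, and the fit scaled to spike-ins left these neurons out. The reads carry no molecular identifiers, so limits from counts cover counting error only. The neurons came from several cultures and the instrument of a sample is not given in the sources used here.

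Compartments were compared with edgeR 4.0.16 (R 4.3.3, TMM, robust quasi-likelihood fit, neuron as a block) over genes with reads in 16 or more of the 32 libraries, with Benjamini-Hochberg adjustment and a threshold of 0.05. A second fit added the interaction with rounds of amplification. The SEs given beside log2 fold changes are those of the fits, not the spread over neurons. DESeq2 1.42.0 was an alternative, beside other scalings, filters, exon counts, no block, each number of rounds alone and each neuron left out. Isoform shares were compared with the exact two-sided signed-rank test at p under 0.1, as in the study. The remaining values used Python 3.11.15, NumPy 2.4.6, pandas 2.3.3 and SciPy 1.17.1. The compartment test and the isoform test were checked on simulated data, and the rounds test was not.

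Dendrites and soma of a number come from the same neuron. Deviations from the compartment means correlated at 0.0887 ± 0.0772 (SD, n = 16) within neurons and -0.00559 ± 0.0526 (SD, n = 240) between neurons, and 0 of 240 library pairs within a compartment held identical counts.

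The genes, role groups and related lists were chosen with earlier results of these data known. Named were the called helicases, the 5 with the highest and the 5 with the lowest log2 fold change, those in at least 15 dendrites, pairs of close copies, Ddx58, Dhx9 and Dhx30, and the one without reads. Other helicases named as examples of a role group were chosen after their values were seen. Sequences and positions came from GENCODE vM21 on GRCm38.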

Additional observations from a re-analysis of the deposited data

How the results depend on the processing

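The number of helicases called depended strongly on the test and the scaling. Against 5 of 45 called higher in somas (5.71% of all genes), DESeq2 gave 30 (46.2% of all genes), scaling to ERCC spike-ins 35 of 44 (62.9%, 14 neurons) and size factors in place of TMM 8 (9.26%). Exon counts gave 2 (2.62%), and 1 each came from median-gene centring (0.846%), no filter on low counts (0.46%), at least 10 reads in 16 libraries (2.55%), the neurons of 2 rounds (2.88%) and the fit without neurons 5, 15 and 16 (1.13%). The neurons of 3 rounds gave 0 (4 at an unadjusted p under 0.05), and the fit with no replicate block, which ignores the pairing by neuron, gave 0 (7 at an unadjusted p under 0.05 in edgeR, and 0.708% of all genes called). Higher in dendrites, DESeq2 (4.26% of all genes) and the fit with no replicate block (1.44%) each gave 1, Ddx58, where the other settings gave 0. Leaving out each neuron gave 1 to 9 higher in somas, with the share of all genes not determined. The median log2 fold change of -2.82 became -1.41 with median-gene centring, -5.03 with ERCC scaling and -1.62 with exon counts. It became -0.63 with no replicate block and -0.91 in neurons of 3 rounds. It was below that of the median gene under all 27 alternatives, by a gap of -0.29 (3 rounds) to -2.20 (no filter) against -1.33. The cause of these differences was not tested.

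Named helicases kept their sign except 7 of 22. The called genes Ddx56, Ddx10, Ddx27, Ddx39b and Dhx57 kept theirs, but with no replicate block they were at -2.91, -0.71, -2.42, -2.61 and -0.70. With exon counts the same genes were at -5.18, -2.53, -5.58, -3.51 and -4.81. With median-gene centring Ddx1, Dhx30, Dhx35 and Dhx36 became 0.41, 0.83, 1.29 and 0.91. With no replicate block Ddx11, Ddx19b, Ddx39, Dhx30 and Dhx35 became -0.63, 1.72, 0.96, 0.15 and 1.84. In neurons of 3 rounds Ddx1, Ddx11, Ddx19b, Dhx30, Dhx35 and Dhx36 became 0.12, -0.16, 0.99, 1.28, 0.0066 and 1.07. ERCC scaling turned Ddx11 to -0.47, and exon counts turned Dhx35 and Dhx36 to 0.057 and 0.54. Dhx35 was at 0.42 in DESeq2 and 0.062 in neurons of 2 rounds, and between -0.62 and 0.45 with each neuron left out, and Dhx36 was at 0.037 without neurons 5, 15 and 16. The isoform, detection and rounds results kept their side of the threshold or stayed within 1 SD.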
